A study of Mus musculus with 8 samples.

Results

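Treg cells that had lost Brg1 were compared with Treg cells that had kept it in the same healthy mosaic females, so that both sets of cells had lived in one body without overt inflammation. The comparison rests on 2 of the 8 libraries of the series, 1 from Brg1-deleted (YFP+) and 1 from Brg1-sufficient (YFP−) cells. Described here are all genes with an FPKM of 1 or more in either library, 12275 of the 53465 identifiers in the files. FPKM expresses the fragments sequenced from a gene per kilobase of exon and per scaled library total. With 1 library per side no difference has a replicate check, no p-value is given, and a gene is called higher or lower when it differed at least 2-fold.

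Brg1, encoded by Smarca4, is the ATPase of the BAF chromatin remodelling complex, which moves nucleosomes and opens enhancers and promoters for transcription factors. Treg cells are CD4 T cells that carry the transcription factor Foxp3 and restrain other immune cells. On activation, a resting Treg cell lowers the receptors that keep it in lymphoid organs and acquires tissue-homing chemokine receptors, effector transcription factors such as Blimp-1 (Prdm1), and suppressive mediators such as IL-10.

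The mosaic females had the genotype Brg1 F/ΔR; Foxp3 YFP-Cre/+ and were homozygous for R26 CAG-FlpoER. The labels give the strain as C57BL/6, and the ΔR allele had been made on a mixed background with 129 Sv and backcrossed to C57BL/6 for 3 generations. F is a floxed allele, and ΔR is a null allele in which a gene trap that expresses GFP interrupts Brg1. FlpoER is a recombinase that needs tamoxifen (TAM), and the mosaic mice received none. Cre and YFP are made from the Foxp3 gene on the X chromosome, so random X inactivation left the Cre active in some Treg cells only. The Brg1-sufficient cells therefore still carried ΔR and had 1 working Brg1 allele. The labels give their genotype as Foxp3+/+ and that of the Brg1-deleted cells as Foxp3 YFP-Cre, so that the Foxp3 allele in use and the Brg1 state cannot be told apart. Cells were pooled from spleen and lymph nodes (LN) of mice aged 3 to 4 weeks, and RNA came from sorted cells. The gate stated for sorted Treg cells was CD4+CD25+YFP+. It cannot have served for the YFP− cells, whose gate is not given in the sources used here. A library called WT, from Brg1 F/+; Foxp3 YFP-Cre/+ mice with FlpoER, served as another Brg1-sufficient library. These mice had 1 floxed and 1 normal allele, and the paper describes such controls as heterozygous for Brg1. WT cells with active Cre would thus also have 1 working Brg1 allele. Reversible knockout mice of the more severe group (rKO1), whose Treg cells had been exposed to inflammation, gave 3 further libraries. The paper gives their genotype as Brg1 F/ΔR and homozygous R26 CAG-FlpoER, with Foxp3 YFP-Cre in males and Foxp3 YFP-Cre/YFP-Cre in females. A low dose of TAM restored Brg1 from ΔR in part of their Treg cells. Of the 3 libraries, 1 held Brg1-deleted cells without TAM. The other 2 were taken on Day 7 after TAM, namely cells still deleted (GFP+) and cells with Brg1 reexpressed (GFP−).

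Reads recovered from the FPKM values numbered 23036485 on genes in the Brg1-sufficient and 24093551 in the Brg1-deleted library. The other 4 libraries held 16324008 to 19364548 reads. Intervals given with a fold are exact 95% binomial (Clopper-Pearson) intervals of the reads of both libraries and cover counting error only. A gene with 3 reads or fewer is at the floor, and a fold against 0 reads is a lower bound against that floor. Scaling by the total count instead of by the deposited total would have shifted log2 differences by 0.13, and by less for genes near 0 FPKM in 1 library.

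Smarca4 (ENSMUSG00000032187, chr9:21616169-21704230) had an FPKM of 12.1 in the Brg1-sufficient, 7.44 in the Brg1-deleted and 14.8 in the WT library. It was thus 1.63-fold lower in the deleted than in the sufficient cells (95% interval 1.51 to 1.76). The value sums all exons, including those outside the floxed part and upstream of the gene trap, so that it checks the deletion only in part. In the rKO1 libraries Smarca4 read 7.34 and 6.13 FPKM in the Brg1-deleted and 9.52 in the Brg1-reexpressed cells. Of 24 measured genes of the BAF complex, 1 was called, Bcl7c, which encodes an accessory subunit and had 9.85 FPKM in sufficient and 3.13 in deleted cells (WT, 8.62). The list had a median log2 difference of 0.06, and no member differed upward by 2-fold. Smarca2, the alternative ATPase, had 4.36 FPKM in sufficient, 4.39 in deleted and 3.15 in WT cells.

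The genes that define Treg cells were present in both libraries. Foxp3 had an FPKM of 137 in Brg1-sufficient, 62.7 in Brg1-deleted and 20.01 in WT cells, and 31.5% of its exon bases are shared with another gene. Both Cre-carrying libraries, the deleted and the WT, lay below the sufficient one. Il2ra, which encodes CD25, had 52.0 FPKM in sufficient, 75.9 in deleted and 52.9 in WT cells. Ikzf2, the gene for Helios, had 37.1, 51.7 and 28.9 FPKM in the same order. Ctla4, an inhibitory receptor central to Treg function, had 51.5, 43.3 and 56.1 FPKM. Of the 15 genes of the Treg identity list, 2 were lower (Nrp1 and Foxp3) and 1 higher (Gpr83). Its median log2 difference of -0.02 was close to that of all 12275 genes, -0.01, and its sign turned when the libraries were scaled by total count.

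Across all 12275 genes, 660 were called higher (5.38%) and 677 lower (5.52%) in the Brg1-deleted cells, which makes 1337 genes (10.9%) in both directions. Scaled by total count, 816 were higher and 557 lower. The WT and the Brg1-sufficient mosaic libraries, neither of them Brg1-deleted, differed by as much in 1830 of 12272 genes (14.9%), of which 8.7% of the 12272 were higher and 6.21% lower in WT. The number of called genes in the mosaic pair was therefore no larger than that between a pair of libraries that both kept Brg1. Among 5859 protein-coding genes with an FPKM of 5 or more in the higher mosaic library, 207 were lower (3.53%) and 52 higher (0.888%) in the deleted cells. A 4-fold difference was reached by 63 lower and 0 higher genes, an 8-fold difference by 26 and 0, and a 16-fold difference by 13 and 0. Of 5928 such genes, 457 (7.71%) differed between WT and Brg1-sufficient mosaic cells, with 271 higher in WT (4.57%) and 186 lower (3.14%). By 4-fold, 42 were higher and 26 lower, by 8-fold 22 and 10, and by 16-fold 10 and 9, so that large differences were no fewer between these libraries and went in both directions.

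**Figure D1:**
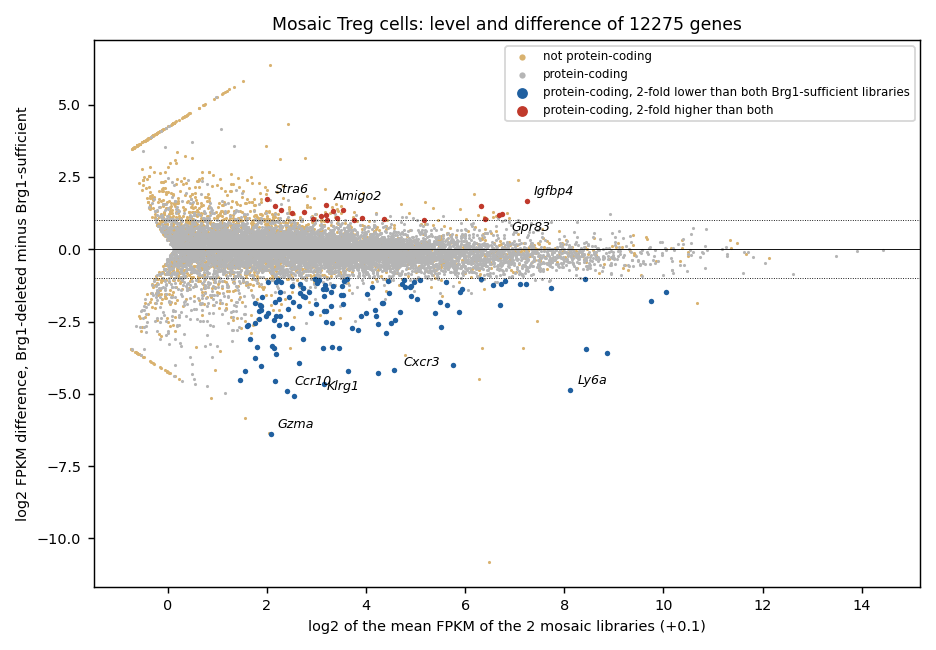
Log2 FPKM difference between the Brg1-deleted and the Brg1-sufficient mosaic library (vertical) against the log2 of their mean FPKM (horizontal), 1 point per gene for 12275 genes. Dotted lines mark 2-fold. The 132 blue points, protein-coding genes at least 2-fold below both Brg1-sufficient libraries, reach far below the lower line, while the 22 red ones lie close to the upper one, and the lines of points at the left edge are genes with 0 FPKM in 1 library.

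To set aside genes that were merely unusual in the Brg1-sufficient mosaic library, the WT library was used as a further reference. By this criterion 132 protein-coding genes with an FPKM of 5 or more were 2-fold lower in Brg1-deleted cells than in both Brg1-sufficient libraries (2.25% of 5859), and 22 were 2-fold higher (0.375%). Over all 12275 genes the same criterion was met by 419 lower (3.41%) and 385 higher (3.14%) genes. The median log2 difference was -1.92 among the 132 and 1.20 among the 22, which the criterion itself shapes. Of the 132 genes, 41 stood on one of the 35 pathway lists used below, and of the 22 genes, 7 did. No share of the 5859 genes on these lists is given, and the lists were chosen with earlier results of these data known. The 41 and the 7 therefore have no background to be set against.

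The 12 genes with the largest difference downward encode secreted and surface proteins for the most part. Gzma, the cytotoxic protease granzyme A, had 8.21 FPKM or 172 reads in sufficient cells, 0 reads in deleted cells and 3.08 FPKM in WT cells, so that it was at least 65.5-fold lower in the deleted cells. Ccr10, a receptor for skin and mucosal chemokines, had 10.1 FPKM in sufficient, 0.244 in deleted and 8.85 in WT cells, a 41.6-fold difference within the mosaic pair (95% interval 22.4 to 87.5). Ly6a, which encodes the GPI-anchored surface protein Sca-1, had 538 FPKM in sufficient, 18.5 in deleted and 714 in WT cells. Ly6a was thus 29.0-fold lower in deleted cells (26.6 to 31.7), and it was the most abundant of the 12. Klrg1, an inhibitory lectin-like receptor of terminally differentiated T cells, had 35.6 FPKM in sufficient, 1.72 in deleted and 33.3 in WT cells (20.6-fold, 15.8 to 27.4). In each of these genes the deleted library lay far below both others, which were within 2.67-fold of each other.

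The remaining 8 genes were of like size. Cxcr3, the receptor for interferon-induced chemokines, had 44.7 FPKM in sufficient, 2.40 in deleted and 33.8 in WT cells. Ccr2, a receptor for inflammatory chemokines, had 8.47, 0.261 and 5.74 FPKM in the same order. Gpr15, a homing receptor for the large intestine, had 5.14, 0.130 and 6.33 FPKM. These 3 receptors lay between 18.6-fold and 39.4-fold apart, with 5 reads of Gpr15 in the deleted library. Il1r2, the decoy receptor that binds IL-1 without signalling, had 16.9 FPKM in sufficient, 0.573 in deleted and 35.1 in WT cells. Ebi3, a subunit of IL-35 and IL-27, had 23.5, 1.19 and 20.5 FPKM, with 23.4% of its exon bases shared with another gene. Fgl2, a secreted suppressive protein, had 5.44, 0.200 and 4.69 FPKM. Il1r2 differed by 29.5-fold, Fgl2 by 27.2-fold and Ebi3 by 19.8-fold, so that 3 mediators of suppression were among the 12. Dkkl1, which encodes a secreted relative of the Dickkopf proteins, had 11.2 FPKM in sufficient, 0.240 in deleted and 8.94 in WT cells. Atp6v0d2, a subunit of the vacuolar proton pump, had 6.85, 0.325 and 1.503 FPKM, and here the WT library lay nearer to the deleted one than for the other 11 genes.

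**Figure D2:**
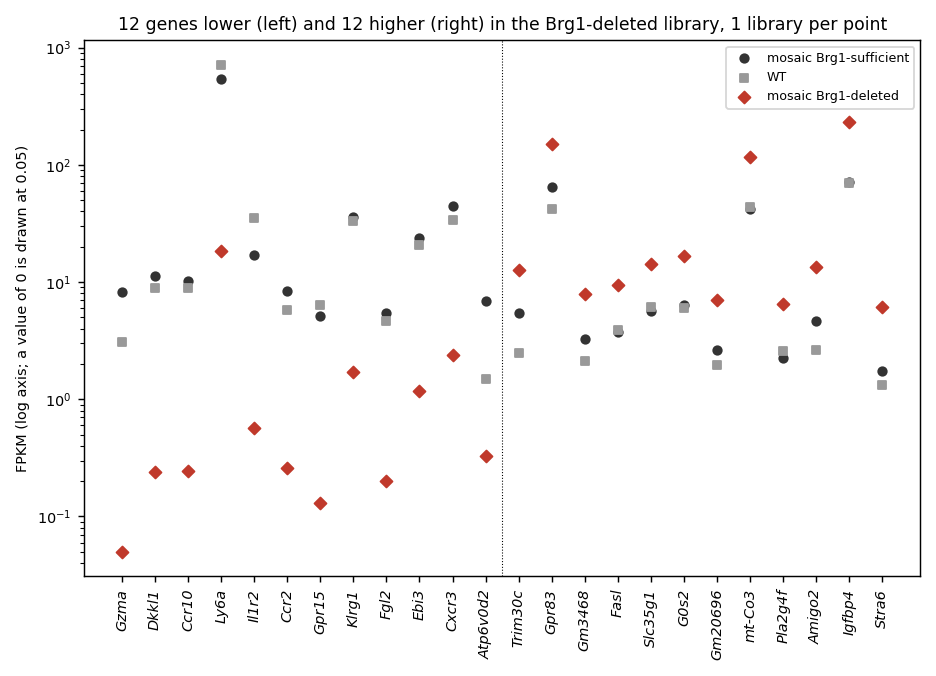
FPKM (log axis) of the 12 genes with the largest downward (left of the dotted line) and the 12 with the largest upward difference (right) in the Brg1-deleted mosaic library, with the Brg1-sufficient mosaic and WT libraries beside it, 1 library per point. The deleted library lies below both others in all 12 genes at the left and above both in all 12 at the right, as the choice of the genes requires, and the gap is wider at the left.

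The genes with the largest difference upward differed by less. Igfbp4, which encodes an insulin-like growth factor binding protein and is high in naive T cells, had 71.8 FPKM in sufficient, 231 in deleted and 70.7 in WT cells (3.22-fold higher, 3.13 to 3.31). Stra6, a membrane receptor for the retinol carrier, led the 12 with 1.74 FPKM in sufficient, 6.09 in deleted and 1.33 in WT cells (3.50-fold, 3.01 to 4.09). Gpr83, a G protein-coupled receptor typical of Treg cells, had 65.1, 150 and 41.8 FPKM, a 2.30-fold difference (2.24 to 2.37). Among the 12, Igfbp4, Gpr83 and mt-Co3 had the highest levels, and no other exceeded 20 FPKM in the deleted cells. Amigo2, a cell adhesion protein, had 4.62 FPKM in sufficient, 13.5 in deleted and 2.61 in WT cells. G0s2, an inhibitor of the lipase ATGL, had 6.40, 16.7 and 6.05 FPKM. Fasl, the death ligand of the TNF family, had 3.77, 9.42 and 3.88 FPKM. The others were the phospholipase gene Pla2g4f, the transporter gene Slc35g1, Trim30c, the mitochondrial gene mt-Co3, and Gm20696 and Gm3468, for which no function is given here. Their folds lay between 2.32 and 2.90.

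Promoter sequence is shown for 6 of these 24 genes, 3 lower and 3 higher, because a low content of CpG in the promoter, which their choice did not use, was more frequent among the called genes of both directions than among all genes. The 6 show both kinds of promoter. RefSeq gives a promoter (250 bases upstream, GRCm38.p6) whose start lies within 500 bases of the gene start for 4210 of the 5859 genes, for 93 of the 132 lower and for 12 of the 22 higher ones. The ratio of observed to expected CpG was under 0.6 in 25.3% of the 4210 promoters. It was under 0.6 in 55 of the 93 promoters of the lower genes (59.1%) and in 8 of the 12 promoters of the higher genes (66.7%). The 200 bases before the start are printed 5′ to 3′ on the strand of the gene, with each CpG in capitals. All 6 genes had starts in RefSeq and GENCODE that lay within 50 bases. The higher genes Amigo2, Pla2g4f, G0s2 and Slc35g1 met this limit too and are not printed. Their CpG ratios were 0.86, 0.05, 0.47 and 0.59, so that the printed higher genes do not represent all that were eligible.
Gzma, chr13:113100982-113101181, minus strand: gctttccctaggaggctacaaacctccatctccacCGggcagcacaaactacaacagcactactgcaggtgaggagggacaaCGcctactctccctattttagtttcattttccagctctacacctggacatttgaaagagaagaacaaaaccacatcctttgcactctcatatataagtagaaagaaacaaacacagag
Ebi3, chr17:55952423-55952622, plus strand: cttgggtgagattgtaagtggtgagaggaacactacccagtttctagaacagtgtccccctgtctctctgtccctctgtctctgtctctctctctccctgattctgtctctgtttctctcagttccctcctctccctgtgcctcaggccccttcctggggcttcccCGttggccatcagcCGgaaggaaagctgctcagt
Fgl2, chr5:21372473-21372672, plus strand: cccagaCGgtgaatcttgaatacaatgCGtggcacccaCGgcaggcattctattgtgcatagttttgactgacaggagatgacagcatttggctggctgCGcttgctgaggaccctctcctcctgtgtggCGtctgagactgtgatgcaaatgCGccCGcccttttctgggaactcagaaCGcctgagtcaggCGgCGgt
Fasl, chr1:161788496-161788695, minus strand: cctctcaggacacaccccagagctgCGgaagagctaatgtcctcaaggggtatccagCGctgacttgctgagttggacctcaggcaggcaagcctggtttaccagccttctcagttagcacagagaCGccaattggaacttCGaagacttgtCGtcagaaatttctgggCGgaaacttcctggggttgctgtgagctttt
Igfbp4, chr11:99041044-99041243, plus strand: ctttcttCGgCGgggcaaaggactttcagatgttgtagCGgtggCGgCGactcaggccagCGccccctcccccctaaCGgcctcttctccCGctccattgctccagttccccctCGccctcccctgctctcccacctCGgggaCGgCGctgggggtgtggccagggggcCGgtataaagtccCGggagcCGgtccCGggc
Gpr83, chr9:14860010-14860209, plus strand: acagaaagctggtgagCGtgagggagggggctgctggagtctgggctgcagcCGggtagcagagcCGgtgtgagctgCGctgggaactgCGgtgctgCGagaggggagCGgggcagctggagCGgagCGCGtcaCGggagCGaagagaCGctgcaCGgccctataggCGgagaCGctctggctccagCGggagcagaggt
Gzma and Ebi3 held 2 CpG each, Fasl 6, Fgl2 10, Igfbp4 16 and Gpr83 17, so that the numbers of the lower and the higher genes overlapped. The ratio over the 250 bases was under 0.6 for Gzma, Ebi3 and Fasl, and above it for Fgl2 (0.65), Gpr83 (0.701) and Igfbp4 (0.748).

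Short motifs of 7 kinds were searched in the 250 bases on both strands, and none of them contains another. The letters TGANTCA (AP-1 type) were found in 9 of the 93 promoters of the lower genes (9.68%) and in 3.56% of the 4210, and TGTGGT (RUNX type) in 18 (19.4%) and in 11.1%. CACCTG (E-box type) was found in 21.5% against 14.1% and TATAAA (core promoter type) in 10.8% against 6.27%. CTTTGA (TCF/LEF type) was found in 7.53% against 10.8%, while AGGTGTGA (T-box type) and a 10-letter NF-κB type sequence were each found in 1 of the 93 promoters. In the 12 promoters of the higher genes, the RUNX and E-box type letters were each found in 3, the core promoter and TCF/LEF type letters in 1, and the others in 0. These are counts of letters and not of binding sites. Of the printed promoters, Fgl2 held the AP-1 type letters 16 bases before its start and Gzma the RUNX type letters 50 bases before it. Gzma also held the E-box type letters at 2 places, and Igfbp4, a higher gene, the core promoter letters 28 bases before its start.

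Described next are the pathway lists, by the number of their members with an FPKM of 1 or more. The background for each count below is the share of all 12275 genes, 5.38% higher and 5.52% lower. The lists with the lowest medians were those of the effector programme, beginning with receptors. Of 18 measured chemokine and homing receptors, 11 were lower in Brg1-deleted cells and 0 higher, with a median log2 difference of -1.95. Besides Ccr10, Ccr2, Gpr15 and Cxcr3, the receptor Ltb4r1 for leukotriene B4 had 6.24 FPKM in sufficient, 0.362 in deleted and 4.77 in WT cells. Cxcr6, a receptor of tissue-resident T cells, had 22.7, 3.37 and 43.0 FPKM, and Ccr4, a skin-homing receptor, had 23.1, 4.11 and 6.71 FPKM. S1pr1, the receptor by which lymphocytes leave lymphoid organs, had 80.8 FPKM in sufficient, 155 in deleted and 75.7 in WT cells, just under the 2-fold limit. Of the 11 lower receptors, 8 were also 2-fold below the WT library. With only the receptors of 1 FPKM or more in both libraries, the median of the list was -0.62, and with the WT library as the control it was -0.99. Of the 5 measured genes of the IL-1 receptor family, 3 were lower. They were Il1r2, Il1rl1 (the receptor for IL-33, 1.34 FPKM in sufficient, 0.262 in deleted and 1.80 in WT cells) and Il18rap. Their median of -1.99 was -0.09 among the members with 1 FPKM or more in both libraries.

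Ligands went with the receptors in the mosaic pair. In the rKO1 pair after TAM (Brg1-deleted minus Brg1-reexpressed) they did not, with medians of 1.25 for ligands and -0.49 for chemokine receptors. Of 19 measured cytokine and chemokine genes, 11 were lower and 1, Fasl, was higher (median log2 difference -1.22). Ltb, the membrane anchor of lymphotoxin, had 1570 FPKM in sufficient, 565 in deleted and 1686 in WT cells and was the most abundant of the 11. Ccl4, an inflammatory chemokine, had 11.7, 1.27 and 26.9 FPKM, and Ccl1, the ligand of CCR8, had 4.20, 0.0355 and 0.361 FPKM. For Ccl1 the WT library was thus nearer to the deleted than to the sufficient library. Cxcl10, a ligand of CXCR3, had 15.9, 6.55 and 21.7 FPKM, and Ccl5 had 46.3, 22.2 and 33.6 FPKM. Ccl3, Csf1, Csf2, Il2, Il4 and Cd40lg were the others. Of these, Csf2, Il2, Il4 and Cd40lg also stand on the list of helper T cells without Foxp3 given below.

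Suppressive mediators showed the same direction. Of 11 measured, 8 were lower and 0 higher (median log2 difference -1.83), where 5.52% of all genes were lower and 5.38% higher. Il10 had 9.79 FPKM in sufficient, 1.41 in deleted and 17.3 in WT cells (6.94-fold, 5.03 to 9.77). Penk, the precursor of enkephalin peptides, had 78.7, 12.2 and 62.7 FPKM. Lgals1, the gene for the secreted lectin galectin-1, had 1337 FPKM in sufficient, 388 in deleted and 1057 in WT cells. Each of these 3 lay at least 3.44-fold apart within the mosaic pair, with the WT library on the side of the sufficient cells. Areg, a growth factor for tissue repair, had 3.95, 1.04 and 5.09 FPKM. Gzmb, granzyme B, had 148 FPKM in sufficient, 73.3 in deleted and 33.8 in WT cells, so that the deleted library lay between the others. Tgfb1 had 12.6, 9.28 and 10.3 FPKM and was not called.

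Of 19 measured effector transcription factors, 11 were lower, 0 higher, and all 19 had a negative difference (median -1.20). Maf, an activator of Il10, had 15.4 FPKM in sufficient, 2.60 in deleted and 9.49 in WT cells (5.93-fold, 5.39 to 6.53). Id2, an inhibitor of E proteins, had 95.8, 21.4 and 91.8 FPKM. Prdm1 had 4.07 FPKM in sufficient, 0.723 in deleted and 1.56 in WT cells. Tbx21, the gene for T-bet, had 3.50, 0.744 and 2.22 FPKM. Ahr, a receptor for aromatic ligands, had 3.91, 0.955 and 2.48 FPKM, and the AP-1 family factor Batf was also among the 11. In each of these genes the WT library lay between the deleted and the sufficient one. The median depended on the lowly expressed members, since it was -0.76 among members with an FPKM of 5 or more.

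Among 20 inhibitory and costimulatory receptors, 5 were lower, 2 higher, and the median was -0.08. Tigit, an inhibitory receptor of the CD155 axis, had 101 FPKM in sufficient, 6.20 in deleted and 32.6 in WT cells (16.3-fold, 13.7 to 19.5). Icos, a costimulatory receptor of activated Treg cells, had 40.1, 7.32 and 21.7 FPKM. Cd96, which binds CD155 as Tigit does, had 88.7 FPKM in sufficient, 179 in deleted and 104 in WT cells. Cd160, a ligand of HVEM, had 9.66, 20.4 and 8.08 FPKM. Of the receptors of the CD155 axis, 1 was therefore low and another high. Lag3, an inhibitory receptor for MHC class II, had 5.45 FPKM in sufficient and 1.42 in deleted cells, but also 1.41 in WT cells.

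Most genes of the naive and resting state were somewhat higher in the deleted cells, but few reached 2-fold and some went the other way. Of 20 measured, 3 were higher and 2 lower, 17 had a positive difference, and the median was 0.35. Id3, the counterpart of Id2, had 290 FPKM in sufficient, 674 in deleted and 360 in WT cells. Id3 was thus 2.33-fold higher (2.28 to 2.38), and Igfbp4, given above, was also among the 3. Il7r, the receptor for the survival cytokine IL-7, went the other way with 24.8 FPKM in sufficient, 4.90 in deleted and 11.6 in WT cells (5.06-fold lower, 4.61 to 5.57). Dapl1, a marker of naive T cells, had 14.4, 3.22 and 40.1 FPKM. Bcl2, an inhibitor of apoptosis that IL-7 and IL-2 signals maintain, had 29.3 FPKM in sufficient, 64.8 in deleted and 34.2 in WT cells (2.21-fold higher) and was the 1 called gene of 14 in the BCL2 family. Tcf7l2, a transcription factor of the Wnt pathway, was low in all libraries but had 0.368 FPKM in sufficient, 1.55 in deleted and 0.264 in WT cells.

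**Figure D3:**
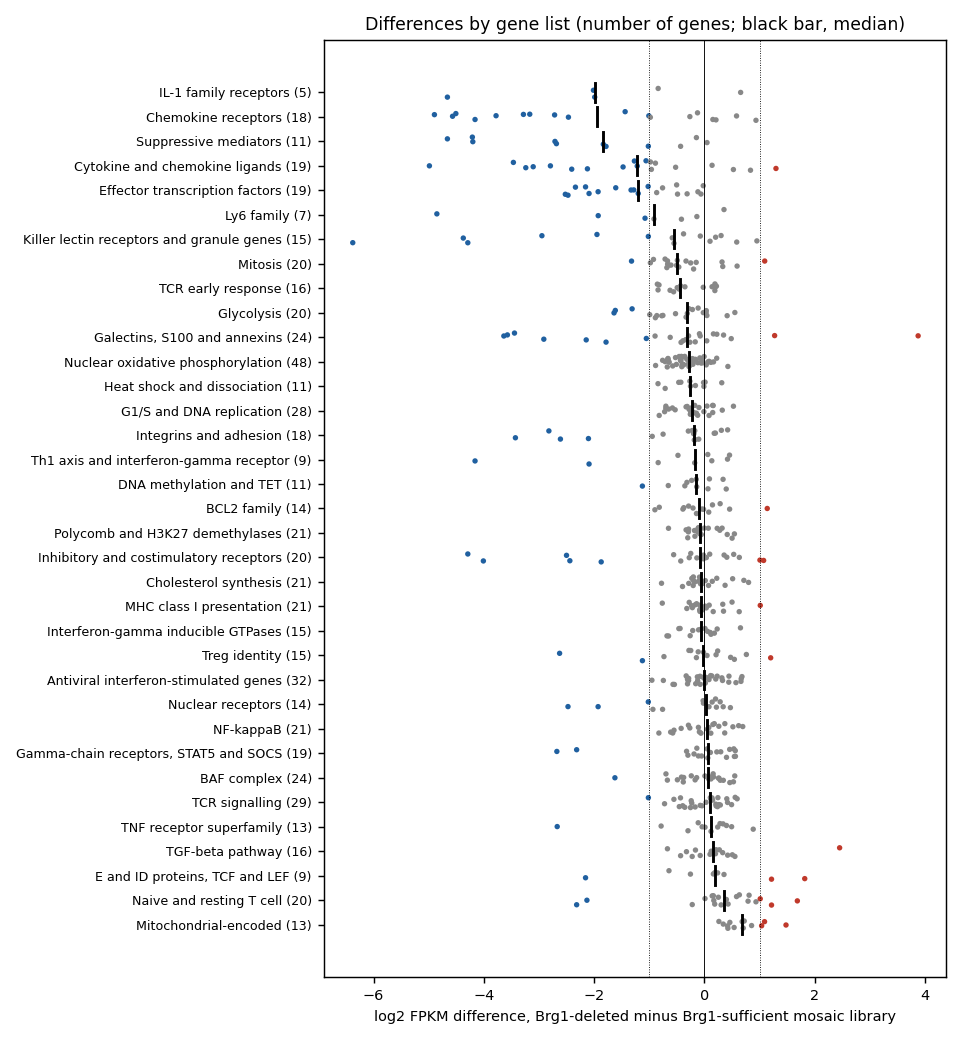
Log2 FPKM difference of each measured gene (1 point) in 35 pathway lists, with the number of genes in brackets and the median as a black bar. Blue and red points are at least 2-fold lower and higher in the Brg1-deleted library. IL-1 family, chemokine receptor, suppressive mediator, ligand and effector transcription factor lists have medians between -1.99 and -1.20, and medians close to 0 change sign in 8 of the 35 lists when libraries are scaled by total count.

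Calcium-binding S100 proteins, annexins and galectins held 7 lower and 2 higher genes among 24. S100a11 had 854 FPKM in sufficient, 71.7 in deleted and 726 in WT cells (11.9-fold, 11.1 to 12.8). S100a6 had 632, 58.0 and 299 FPKM (10.9-fold, 10.4 to 11.4). Lgals3, the gene for galectin-3, had 37.4, 4.89 and 63.1 FPKM. The fewest reads behind these values were the 216 of Lgals3 in the deleted library. S100a9, a neutrophil gene, had 0 FPKM in sufficient, 1.37 in deleted and 2.02 in WT cells, on 17 reads in the deleted library. Of 18 integrins and adhesion genes, 4 were lower. Itgb1, the beta-1 integrin chain, had 29.3 FPKM in sufficient, 6.75 in deleted and 40.9 in WT cells, and Epcam had 20.04, 1.77 and 8.78 FPKM. Fut7 and Gcnt1, glycosyltransferases that make selectin ligands, were the other 2, with 3.02 and 1.41 FPKM in sufficient and 0.411 and 0.113 in deleted cells.

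Of 15 killer lectin receptors and granule genes, 6 were lower, and 5 of them were also 2-fold below the WT library. The median of the list was -0.55, but 0.47 with the WT library as the control. Gzmc had 15.5 FPKM in sufficient, 3.95 in deleted and 11.2 in WT cells, and Gzmk had 57 reads in sufficient and 0 in deleted cells. Ly6c1, another member of the Ly6 family, had 78.8, 20.7 and 95.9 FPKM, while Ly6e had 990, 525 and 886 FPKM and was not called. Some lower genes lay beside each other. Of the 207 lower genes, 33 (15.9%) had another lower gene starting within 100 kb, and of the other 5652 genes, 296 (5.24%) had a lower gene so near. Hist1h genes, near-identical copies on chromosome 13, made up 4 of the groups. The other pairs included Ly6a and Ly6c1 (chr15:74994877-75048830), Gzmc and Gzmb (chr14:56231441-56262260), S100a4 and S100a6 (chr3:90603771-90624181), and Gpr15 and Cldnd1 (chr16:58717433-58734251). Of the 52 higher genes, 3 had such a neighbour, all of them on the mitochondrial genome.

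In smaller groups 1 to 3 genes were called, where 10.9% of all genes were called. The share was below that in the TGF-β and DNA methylation lists and above it in the others. Of 9 E and ID proteins and TCF/LEF factors, 1 was lower and 2 higher, namely Id2, Id3 and Tcf7l2 as given above. Of 14 nuclear receptors 3 were lower, among them Ahr and Nr1d1, the gene for the clock repressor REV-ERBα (1.01 FPKM in sufficient, 0.451 in deleted and 1.11 in WT cells). In the TGF-β pathway 1 of 16 genes was higher, Ltbp4, which anchors latent TGF-β in the matrix and had 0.208, 1.59 and 0.143 FPKM. Of 11 genes of DNA methylation and TET 1 was lower, Gadd45b, a stress-induced gene with 67.4, 30.9 and 215 FPKM. Of the 9 genes of the Th1 axis and the interferon-γ receptor, Tbx21 and Cxcr3 were lower, and the median of this list was -0.18. The single genes of the first 4 groups lay among medians from -0.15 to 0.19.

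Several lists close to the Treg activation programme held no called genes. Of all 12275 genes 10.9% were called, and 4.42% of the protein-coding genes with an FPKM of 5 or more. In lists of 11 to 32 genes such shares amount to few calls, and whether 0 lies below the background was not tested. The NF-κB list (21 genes), the antiviral interferon-stimulated list (32), the interferon-γ inducible GTPases (15) the TCR early response (16) and the heat shock and dissociation list (11) had 0 genes called in either direction. Their medians were 0.05, -0.01, -0.06, -0.45 and -0.25 on the log2 scale, and scaling by total count turned the sign of both interferon lists. Of 29 TCR signalling genes 1 was called, Ubash3b, a phosphatase that dampens the signal, with 9.05 FPKM in sufficient, 4.42 in deleted and 4.08 in WT cells. Of 19 genes of the common gamma chain receptors, STAT5 and SOCS proteins, 2 were lower, Il7r and Il9r. Il2rb, a chain of the IL-2 receptor, had 313 FPKM in sufficient, 462 in deleted and 131 in WT cells. For the TNF receptor superfamily 1 of 13 was lower (Tnfrsf8, the gene for CD30, 1.0001 against 0.0729 FPKM). Tnfrsf9, which encodes the activation marker 4-1BB, had 91.2 FPKM in sufficient, 129 in deleted and 53.4 in WT cells. Cholesterol synthesis (21 genes) and Polycomb genes (21) also had 0 called, and Nlrc5, an activator of MHC class I genes, was the 1 called of 21 class I genes, with 8.90, 18.1 and 8.95 FPKM. Among the TCR early response genes, Fos, Jun and Junb, which also answer to tissue dissociation, were much higher in the WT library than in both mosaic ones, with Junb at 174 FPKM in sufficient, 96.3 in deleted and 1658 in WT cells.

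The G1/S and mitosis lists held no larger share of called genes than the 10.9% of all genes. Of 28 G1/S and DNA replication genes 0 were called (median -0.22, or -0.09 when scaled by total count, 21 with a negative difference). Of 20 mitosis genes 1 was lower and 1 higher (median -0.50, 16 with a negative difference). Ccnb2, a mitotic cyclin, had 24.9 FPKM in sufficient, 9.89 in deleted and 32.8 in WT cells, and Birc5, the gene for survivin, had 15.0, 7.55 and 32.8 FPKM. Kif20a, a mitotic kinesin, had 0.99995 FPKM in sufficient and 2.25 in deleted cells. Histone genes of the Hist1h clusters, which were added to the lists after their values were seen, held 18 lower and 0 higher genes among 35, and 34 had a negative difference. Their summed FPKM was 705 in sufficient, 404 in deleted and 921 in WT cells. These genes are near-identical copies, so that the share of a single member is uncertain.

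Among the metabolic lists given here, only the mitochondrial and glycolysis lists held called genes. Of all 12275 genes 5.38% were higher and 5.52% lower, smaller shares than those of higher mitochondrial and of lower glycolysis genes. Of 13 protein genes of the mitochondrial genome, 3 were higher, all 13 had a positive difference, and the median was 0.69. mt-Co3 had 42.0 FPKM in sufficient, 117 in deleted and 43.7 in WT cells, while mt-Co1 had 1175, 1939 and 2168 FPKM. Against the WT library the deleted one was thus higher for mt-Co3 and not for mt-Co1. Of 48 nuclear genes of oxidative phosphorylation, 0 were called and 41 had a negative difference (median -0.28), a median close to the -0.25 of the shortest protein-coding genes with an FPKM of 5 or more. The cytosolic ribosomal proteins (81 genes) had 0 called and a median of -0.08, which turned positive with scaling by total count. Of 20 glycolysis genes 3 were lower, with a median of -0.32. Hk2, the inducible hexokinase, had 1.74 FPKM in sufficient, 0.50008 in deleted and 2.24 in WT cells, and Aldoa had 208, 112 and 211 FPKM and was not called.

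The direction of the calls depended on the kind and level of the gene. Among 9461 protein-coding genes 165 were higher and 443 lower, and among the other 2814 genes 495 were higher and 234 lower. Antisense genes held 60 higher and 17 lower among 297, and lincRNA genes 45 and 31 among 265. Reads of an antisense gene and its partner cannot be told apart without strand, and the SMART-Seq v4 cDNA used here does not keep it. Of 2218 genes with an FPKM from 1 to 2 in the higher library 296 were higher and 218 lower, against 21 and 76 of 2138 genes with 20 to 100 FPKM. Exon length went with the calls as well. Among protein-coding genes with an FPKM of 5 or more, 90 of the 1172 shortest were lower (7.68%, median difference -0.25), and 19 of the 1172 longest (1.62%, median 0.00). The part of length and of RNA quality in the results was not tested. Single genes at both ends of the length range had large differences, and such examples do not test that part. S100a11, with 511 exon bases, was 11.9-fold lower, and Nrp1, a receptor for semaphorins with 9785 exon bases, had 8.02 FPKM in sufficient, 1.22 in deleted and 10.1 in WT cells (6.60-fold, 5.81 to 7.51).

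**Figure D4:**
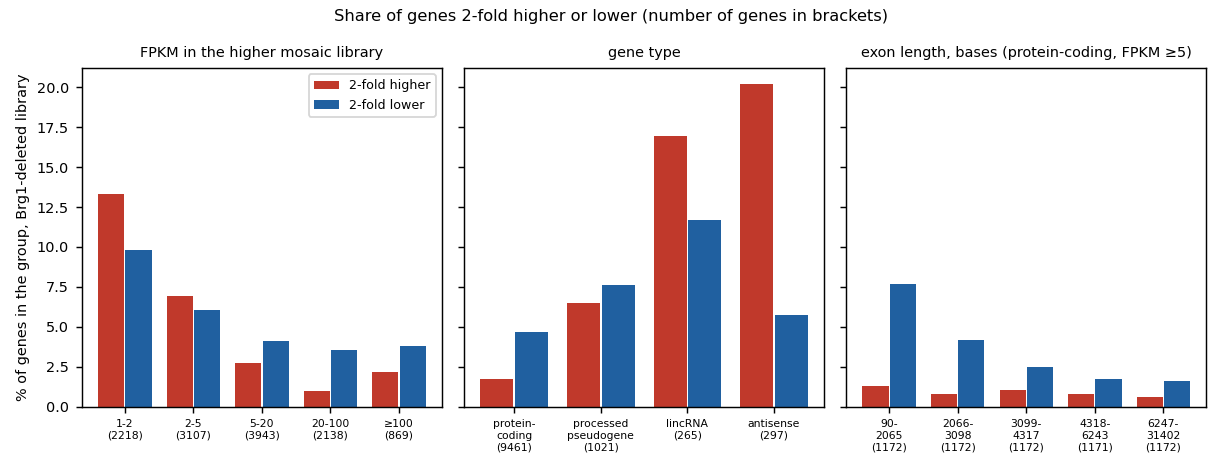
Share of genes that were at least 2-fold higher (red) or lower (blue) in the Brg1-deleted mosaic library, by FPKM in the higher mosaic library, by gene type, and by exon length for protein-coding genes with an FPKM of 5 or more. Higher genes are most frequent among antisense genes (20.2%) and genes of 1 to 2 FPKM (13.3%), and the share of lower genes goes from 7.68% of the shortest to 1.62% of the longest genes.

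Markers of other cells were checked, since fewer cells of a kind and less RNA per cell cannot be told apart in bulk RNA. Of all 12275 genes, 5.38% were higher and 5.52% lower, which is the background for the counts of these short lists. B cell markers summed to 41.7 FPKM in sufficient, 47.4 in deleted and 64.1 in WT cells, with 0 of 3 measured genes called. Dendritic cell, thymocyte and erythroid lists had 0 called of 5, 6 and 4 genes. Of 8 plasma cell genes 1 was lower, Ighm. The myeloid list summed to 170 FPKM in sufficient, 148 in deleted and 566 in WT cells, with 1 of 8 measured genes higher (S100a9) and 1 lower (Fcer1g, 31.0 FPKM in sufficient, 8.51 in deleted and 48.1 in WT cells). The helper T cell list moved with the comparison. Of 7 measured genes typical of CD4 T cells without Foxp3, 6 were lower in the deleted cells and none higher. Only 2 of the 7 had 1 FPKM or more in both libraries, with a median log2 difference of -1.09 against -2.41 for the 7. The others were measured only because they reached 1 FPKM in the sufficient library, so that their direction was largely fixed by the filter. The 14 genes of the list summed to 61.4 FPKM in sufficient, 22.3 in deleted and 69.0 in WT cells. Cd40lg, the ligand by which helper cells activate B cells, had 36.8 FPKM in sufficient, 15.8 in deleted and 37.4 in WT cells, and Il2 had 4.16, 0.514 and 0.979 FPKM. Il4 had 2.43, 0.377 and 3.65 FPKM, and Il17f, Csf2 and Cxcr5 were the others. The γδ T cell list (3 lower of 4) summed to 31.4, 13.1 and 80.4 FPKM, with Tcrg-C1 at 18.1, 6.73 and 51.0 FPKM. The CD8 T and NK cell list held 4 lower of 8 genes but summed to 202, 230 and 201 FPKM. Ncr1, a receptor of NK cells, had 3.24 FPKM in sufficient, 0.0273 in deleted (1 read) and 0.299 in WT cells. Of the 14 genes of the helper list, 1 was at 0 in sufficient and 3 in deleted cells, and of the 14 genes of the CD8 and NK list, 0 and 3. Activated helper T cells carry CD25 as Treg cells do, and no Foxp3 reporter marked the YFP− cells. The part of such cells in the differences above was not tested. The WT library, sorted on YFP, held the Cd40lg and Il4 levels of the YFP− cells but not their Il2 and Ncr1 levels.

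The genes called against both Brg1-sufficient libraries were then read in the rKO1 pair on Day 7 after TAM, which shares no library with them. Of the 132 lower genes, 130 had an FPKM of 1 or more there, and 68 of these were 2-fold lower and 11 higher in the Brg1-deleted than in the Brg1-reexpressed cells, where 5.9% and 3.43% of 5954 genes were so, 9.32% in all. Over the 12580 genes of that pair of any type the shares were 8.49% lower and 9.31% higher. Of the 22 higher genes, 21 were measured, 12 higher and 1 lower. The median log2 differences of the pair were -1.05 and 1.25. Igfbp4 had 99.95 FPKM in deleted and 3.70 in reexpressed rKO1 cells, Gpr83 had 34.5 and 6.28, and Gzma had 38.1 and 520. In all 3 genes the direction was that of the mosaic pair, at levels that differed widely between the mice.

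**Figure D5:**
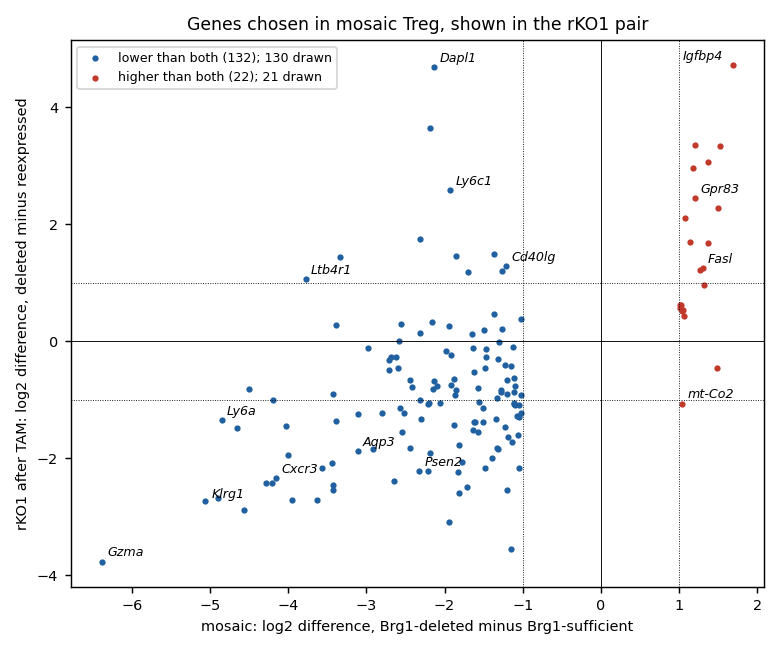
Log2 FPKM difference in the rKO1 pair after TAM, Brg1-deleted minus Brg1-reexpressed (vertical), against that of the mosaic pair, Brg1-deleted minus Brg1-sufficient (horizontal), for the 130 lower (blue) and 21 higher (red) genes measured in both. Dotted lines mark 2-fold. The horizontal position is fixed by the choice of the genes, and vertically 109 of the blue points lie below 0.

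Every Brg1-deleted library was also set against every Brg1-sufficient one. Of the 5859 protein-coding genes, 688 (11.7%) had all 3 Brg1-deleted libraries below the 3 others, which include the reexpressed cells, and 254 (4.34%) had them above. The choice of the called genes fixes part of this order, since it placed the mosaic deleted library beyond 2 of the 3 sufficient ones. Among the 132 lower genes the order held for 51, and 7 kept a gap of at least 2-fold, while among the 22 higher genes it held for 10, 3 of them with that gap. Aqp3, a channel for water and glycerol, had 5.54, 10.3 and 4.99 FPKM in mosaic sufficient, WT and reexpressed cells. In the Brg1-deleted cells of the mosaic, untreated rKO1 and TAM-treated rKO1 mice it had 0.552, 0.247 and 1.28 FPKM. Psen2, a presenilin of the gamma-secretase complex, had 30.7, 25.9 and 42.7 FPKM in the 3 sufficient and 6.06, 10.1 and 9.07 in the 3 deleted libraries. Among the higher genes, Cd160 had 9.66, 8.08 and 5.35 FPKM in sufficient and 20.4, 27.1 and 23.4 in deleted libraries. Fasl had 3.77, 3.88 and 4.15 FPKM against 9.42, 11.6 and 10.01. For Aqp3, Psen2, Cd160 and Fasl the 3 deleted libraries lay apart from the 3 others by at least 2-fold, in mice with and without inflammation.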

How the data were processed

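Gene-level FPKM values were deposited by the authors, 1 table per library, from 150-base paired-end SMART-Seq v4 libraries. Per the labels, the submitters' processing notes name HISAT2 2.0, StringTie 1.3.3b, featureCounts 1.5.0-p3 and the mm10 genome. Of the 8 tables, 2 were not used here. Whole reads were recovered from the FPKM steps for 93.6% of 26020 genes with reads (tolerance 0.05 reads), which gave the depths and the intervals; PCR copies carry no molecular identifier. Differences are log2 of FPKM plus a pseudocount of 0.1, Brg1-deleted minus Brg1-sufficient. With 1 library per side no test was run, and a 2-fold difference was the rule for a call. The 2-fold call, the intervals and the TMM scaling were tested on simulated read counts. The recovery of reads from FPKM was not tested in this way. Named genes are the 12 protein-coding genes in each direction with an FPKM of 5 or more and the largest difference among those called against both Brg1-sufficient libraries, up to 6 members of each list with the largest difference, any member of a short list, and genes named in the study. Other genes, given as examples of a list or a set, were chosen after their values were seen. The members and the 35 pathway and 9 marker lists were chosen with earlier results of these data known. Of the identifiers, 53360 of 53465 were matched to the annotation. RefSeq promoters came from GRCm38.p6. Alternatives were other pseudocounts, scalings, filters, fold limits and the WT library as control. Some genes of the lists are counted in them and not reported here by name.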

Additional observations from a re-analysis of the deposited data

Results flagged for a closer look

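Among the named genes and the members of the gene lists, 17 differed at least 2-fold in opposite directions in the mosaic pair and the rKO1 pair after TAM. Genes outside the lists were not counted here. No share of the genes measured in both pairs is given, so that the 17 have no background to be set against. Each side is 1 library, and the difference between the pairs was not tested. The values are log2 differences, Brg1-deleted minus Brg1-sufficient in the mosaic pair and Brg1-deleted minus Brg1-reexpressed in the rKO1 pair. Several of the largest depend on the pseudocount. In reexpressed cells Ncr1 and Dapl1 had 0 FPKM and Tcrg-C2 had 0.139. In mosaic deleted cells Ccl1 had 0.0355 and Ncr1 0.0273 FPKM. Among cytokine genes, Il2 read -2.79 and 3.00, Il4 -2.41 and 1.91, Csf2 -2.12 and 2.51, Cd40lg -1.22 and 1.28, Ccl1 -4.99 and 4.69, and Cxcl10 -1.27 and 1.21. Among receptors, Il1rl1 read -1.99 and 1.07 and Ltb4r1 -3.78 and 1.07. The γδ T cell receptor constant genes read -1.41 and 4.71 for Tcrg-C1, -1.32 and 5.25 for Tcrg-C2, and -1.29 and 2.72 for Tcrg-C4. The NK cell and myeloid genes Ncr1 and Fcer1g read -4.72 and 5.6, and -1.85 and 1.45. Ly6c1 read -1.93 and 2.58, Dapl1 -2.13 and 4.69, and Bhlhe40, a transcription factor of cytokine-producing T cells, -1.02 and 1.25. The mitochondrial gene mt-Co2 was the exception in sign, with 1.04 and -1.06.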

How the results depend on the processing

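No paired analysis was possible because each side holds 1 library, and for the same reason no replicate could be left out. Depth limits genes near 3 reads, where a fold is a bound or has a wide counting interval. The 660 higher and 677 lower genes became 313 and 403 with a pseudocount of 1, 237 and 319 with an FPKM of 1 or more in both libraries, 183 and 370 with 5 CPM or more of recovered reads, and 148 and 271 with an FPKM of 5 or more. They became 1948 and 1775 with any FPKM above 0, 165 and 443 among protein-coding genes, 1121 and 1399 against the WT library, 1563 and 1599 at 1.5-fold, and 201 and 227 at 4-fold. With a pseudocount of 0.01, scaling by TMM or total count, a median set to 0, or genes overlapping no other gene, both counts stayed within 1.5 times of these. The 24 named genes kept their direction and a 2-fold difference with the other pseudocounts and scalings. Filters leave the value of a gene as it is, and the WT library was part of their choice, so that these alternatives could not change them. The median of the CD8 T and NK cell list, -1.09, turned to 0.10 with an FPKM of 1 or more in both libraries and to 0.28 against WT. That of the killer lectin receptor and granule list turned from -0.55 to 0.47 against WT. In these cases the cause was not tested.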

Other observations

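The following genes were chosen after their values were seen. Transcripts of the immunoglobulin heavy chain locus on chromosome 12 differed within the mosaic pair. Ighm, the constant region of IgM, had 296 FPKM in Brg1-sufficient, 53.5 in Brg1-deleted and 230 in WT cells (5.53-fold, 5.29 to 5.78). Ighj1, a joining segment, had 56, 5 and 17 reads in the same order, and the diversity segment Ighd4-1 had 41, 0 and 13 reads. Ighd, the constant region of IgD, went the other way with 2.38, 4.96 and 1.49 FPKM. In the rKO1 libraries Ighm had 206 and 150 FPKM in the untreated and TAM-treated Brg1-deleted and 697 in the reexpressed cells. B cell markers had no called gene in the mosaic pair.

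Gt(ROSA)26Sor, the non-coding transcript of the locus into which FlpoER was inserted, had 10.04 FPKM (354 reads) in sufficient, 0.843 (34 reads) in deleted and 5.59 in WT cells. Its neighbour Thumpd3 had 7.69 and 9.78 FPKM in sufficient and deleted cells, and Setd5 had 4.83 and 3.21. Nedd4, which encodes a ubiquitin ligase, had 0.504, 0.198 and 0.433 FPKM in mosaic sufficient, WT and rKO1 reexpressed cells, and 2.75, 4.07 and 2.49 in mosaic, untreated rKO1 and TAM-treated rKO1 deleted cells.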
